A study of Mus musculus with 16 samples.

Results

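The effect of the Aire knockout was followed in medullary thymic epithelial cells (mTEC) with high surface CD80, by setting 2 arrays of Aire-knockout CD80hi mTEC against 2 arrays of wild-type CD80hi mTEC. These 4 arrays were chosen by their labels out of 16, and every probe set other than the array's own controls was considered. The cells were FACS-sorted from mouse thymus, and total RNA was hybridised to an Affymetrix mouse expression array. The remaining arrays hold Aire-knockout CD80lo mTEC, wild-type CD80lo mTEC, and wild-type unfractionated mTEC, wild-type epithelium of the thymic cortex (cTEC), and wild-type dendritic cells and macrophages of the thymus, with 2 arrays in each group. All groups are untreated as far as the labels say. The labels state neither the age, sex or strain of the mice, nor how many animals went into a sample, nor which part of Aire was deleted. Nor do they call the paired samples of a genotype separate animals or sorts, so the p-values measure the spread between these arrays, which may be technical.

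Medullary thymic epithelium presents self-antigens of peripheral tissues to developing T cells, which are deleted or diverted when they bind them too strongly. The nuclear protein AIRE is needed for transcription of part of these tissue genes, and loss of its function causes autoimmune disease in mice and people. CD80 is a costimulatory ligand whose level on mTEC rises with maturation, and most AIRE protein is found in the CD80hi cells. Insulin and the caseins are standard examples of tissue genes that mTEC transcribe.

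Values are the deposited array signals, a linear measure of brightness with 1 value per probe set and array. Levels are compared for 1 probe set across arrays only, since probe sets differ in how brightly they respond. A difference is the mean of log2(signal + 4.8) in knockout minus that in wild type, with its standard error from the fit after the ± sign. The constant of 4.8 is the 20th percentile of all values, and it makes differences of dim genes look smaller than they are. A probe set was tested if it exceeded 17.3, the 40th percentile, on at least 2 of the 16 arrays, so a gene at background everywhere else can have entered through the 2 wild-type CD80hi arrays alone. "Fell" and "rose" mean a limma adjusted p under 0.05 over the 9319 probe sets tested. The 2 knockout CD80hi arrays correlated across probe sets at r = 0.921 and the 2 wild-type ones at r = 0.966, and the standard deviation between paired arrays was 0.544 against 0.329 on the log2 scale. The median difference of all tested probe sets was -0.05, and it became 0.06 after quantile normalisation, a shift of 0.11.

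The labels were checked against marker genes first. Aire had signals of 1589 and 1385 on the knockout arrays and 1829 and 1704 on the wild-type arrays, a difference of -0.25 ± 0.51 (adjusted p = 0.977). The position of this probe set relative to the deletion is not known here, so it tests nothing about the genotype. Cd80, the gene of the sorting marker, had signals of 79.7 and 104.5 in knockout and 61.3 and 87.5 in wild-type CD80hi cells, whereas the 4 CD80lo arrays read between 6.6 and 13.7. The MHC class II gene H2-Aa read 8959 and 8328 in knockout and 7977 and 7866 in wild-type cells. The epithelial adhesion gene Epcam read 118 and 300.5 in knockout and 368 and 356 in wild-type cells, so the knockout arrays differed from each other more than the groups did (-0.92 ± 0.48, adjusted p = 0.525). Fezf2, which encodes another regulator of tissue genes in mTEC, read 2489 and 1149 in knockout and 2470 and 2157 in wild-type cells (-0.45 ± 0.61, adjusted p = 0.943). It was chosen after its values were seen.

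A gene outside the autosomes also separated the genotypes. Eif2s3y, a gene on the Y chromosome, read 54.3 and 233 in knockout CD80hi cells against 4.2 and 2.0 in wild-type CD80hi cells, a difference of 3.92 ± 0.67 (adjusted p = 0.00435). Knockout CD80lo cells read 36.7 and 149, and the 12 wild-type arrays of all cell types read 0.5 to 8.2. The Eif2s3y probe set has a suffix for probes shared among similar sequences, so other transcripts could contribute. Of the other Y-linked genes, none of which passed the filter, Uty read 1.6 and 22.3 in knockout and 1.2 and 2.4 in wild-type CD80hi cells, and Kdm5d and Sry read 16.2 or less on every array. Xist, expressed from the inactive X chromosome of females, read 36.7 and 25.6 in knockout and 41.0 and 72.5 in wild-type cells (-0.74 ± 0.49, adjusted p = 0.699). The Eif2s3y signal ran with the genotype in both fractions and was higher on array 2 than on array 1 of each knockout group; its call was lost without wild-type array 2 (adjusted p = 0.0571). Its part in the other differences was not tested.

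Of the 9319 probe sets, 268 were lower in knockout CD80hi cells (2.88%) and 16 were higher (0.172%). At an unadjusted p under 0.05 there were 844 lower and 232 higher. The lower probe sets represent 221 distinct genes, and taking the brightest probe set of each gene, 211 of 6922 genes fell (3.05%) and 13 rose (0.188%). By size, 12 of the 268 had a difference of -4 or lower, 34 lay between -4 and -3, 138 between -3 and -2, and 84 above -2. On both knockout arrays 140 of the 268 (52.2%) read at or under the filter level of 17.3, while 16 still read above 100 on both. Fewer transcribing cells and less RNA per cell cannot be told apart in these bulk samples.

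**Figure D1:**
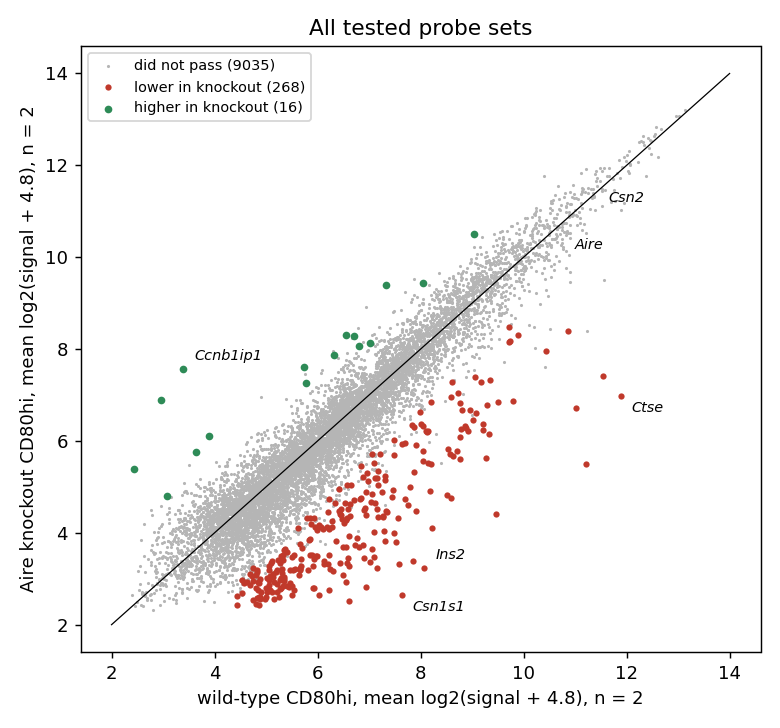
Each point is 1 of the 9319 tested probe sets, with its mean log2(signal + 4.8) over 2 knockout CD80hi arrays on the vertical axis and over 2 wild-type CD80hi arrays on the horizontal axis; the line marks equal levels. The 268 probe sets lower in knockout cells lie below the line, Csn1s1 and Ins2 near the floor of the knockout scale, while Csn2 and Aire lie by the line.

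The number of calls depended on single arrays. Fits without knockout array 1 or 2 gave 138 or 205 lower probe sets, and fits without wild-type array 1 or 2 gave 86 or 80. The single array left in a group is then assumed to vary as the other groups do. Of the 268, 64 passed in all 4 of these fits and 62 in none. Of the 16 higher probe sets, 1 passed in all 4. Genes named below passed in all 4 unless it is said that a call was lost.

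The largest losses among named genes belonged to different tissues. Csn1s1, the alpha-S1 casein of milk, read 1.9 and 1.1 in knockout cells and 185 and 202 in wild-type cells (-4.98 ± 0.39, adjusted p = 1.44e-05). Ins2, an insulin gene, read 0.3 and 12.6 in knockout cells and 294 and 238 in wild-type cells (-4.84 ± 0.50, adjusted p = 0.000126). Its probe set has a suffix for probes shared among similar sequences, so Ins1 transcripts could contribute. Both genes were at background in knockout cells.

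Ctse, the gastric protease cathepsin E, read 248.8 and 57.9 in knockout cells and 3936 and 3658 in wild-type cells (-4.91 ± 0.47). It remained above the filter level on both knockout arrays. Mucl2, a mucin-like gland protein, read 0.9 and 14.3 in knockout cells and 253.5 and 203.0 in wild-type cells (-4.47 ± 0.54). Camk2b, a calcium-dependent kinase of neurons, read 27.5 and 4.5 in knockout cells and 284 and 301 in wild-type cells (-4.10 ± 0.48). Mt4, a metallothionein of squamous epithelia, read 3.4 and 18.6 in knockout cells and 189 and 171 in wild-type cells (-3.74 ± 0.52). In each of these genes the 2 knockout arrays differed by several fold while the wild-type arrays were close together.

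**Figure D2:**
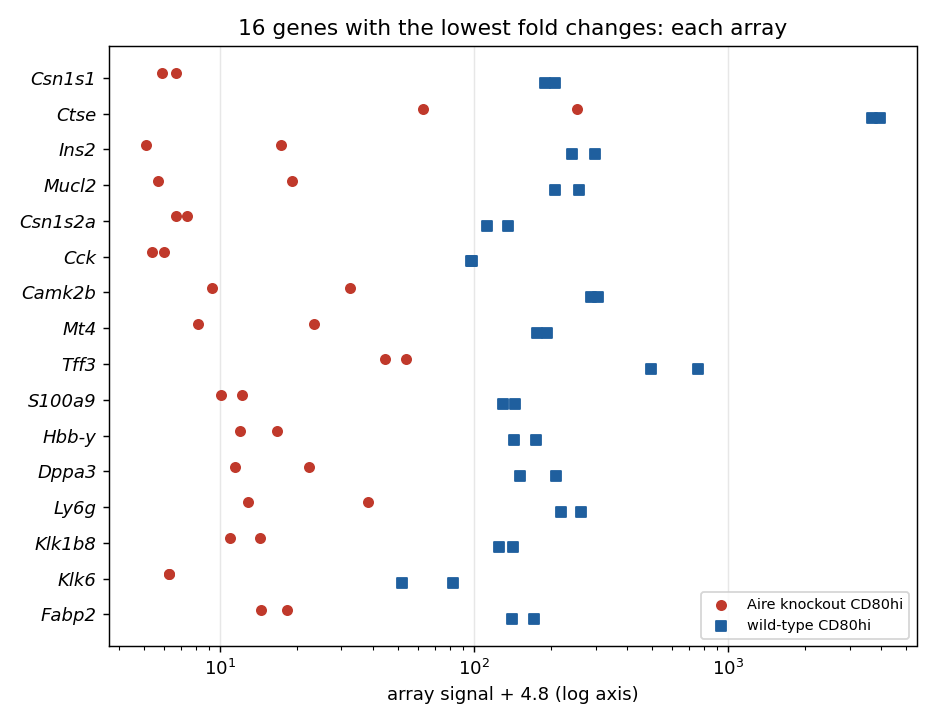
Signal + 4.8 on a log axis for the 16 genes with the lowest differences that passed with every CD80hi array left out in turn; circles are the 2 knockout CD80hi arrays and squares the 2 wild-type CD80hi arrays. The groups do not overlap for any of these genes, as the way of choosing them implies, and Ctse reads 57.9 or more in knockout cells where Csn1s1, Csn1s2a, Cck and Klk6 read under 3.

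The casein genes lie in 1 cluster on mouse chromosome 5, and its members gave different values. Csn1s2a, an alpha-S2-like casein, read 1.9 and 2.6 in knockout cells and 131 and 107 in wild-type cells, a fall like that of Csn1s1 (-4.13 ± 0.38, adjusted p = 7.3e-05). Csn2, the beta-casein gene, read 2869 and 3103 in knockout cells and 2462 and 3089 in wild-type cells (0.11 ± 0.55, adjusted p = 0.997). Csn3, the kappa-casein gene, chosen after its values were seen, read 174 and 164 in knockout cells and 82.7 and 123 in wild-type cells (0.72 ± 0.45, adjusted p = 0.671). Wap, a whey protein gene on another chromosome, read 1.1 and 2.5 in knockout cells and 32.0 and 32.3 in wild-type cells (-2.49 ± 0.37, adjusted p = 0.00196). All of these genes were brighter in wild-type CD80hi than in wild-type CD80lo cells, Csn2 included (98.7 and 39.0 in wild-type CD80lo cells). Of 11 milk protein genes listed, 6 were tested, and 3 fell while 3 did not pass (Csn2, Csn3 and the mucin gene Muc1).

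The 60 bases before the annotated start of 3 of these casein genes are shown because neighbours in 1 cluster differed in their response, together with those of Mt4, which fell. They are RefSeq sequences of build GRCm38.p6, read 5′ to 3′ on the strand of the gene, and capitals mark the letters TATAAA where they occur between 40 and 20 bases before the start.
Csn1s1: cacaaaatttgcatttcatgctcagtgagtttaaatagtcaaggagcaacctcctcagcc
Csn1s2a: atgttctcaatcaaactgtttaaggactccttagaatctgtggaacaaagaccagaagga
Csn2: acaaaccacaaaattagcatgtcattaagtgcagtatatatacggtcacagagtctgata
Mt4: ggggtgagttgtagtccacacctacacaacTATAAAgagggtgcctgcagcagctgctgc
Csn1s1 lies on the plus strand (chr5:87666148-87666207), Csn1s2a on the plus strand (chr5:87774390-87774449), Csn2 on the minus strand (chr5:87699426-87699485) and Mt4 on the plus strand (chr8:94137144-94137203). The letters TATAAA were searched on the gene's strand only, and 2.22% of all 27025 promoters in the table hold them in that window. Of the 4 shown, Mt4 holds them, starting 30 bases before the start, and the letters are not in this window of the 3 caseins. They are not in this window of Mucl2, Cck, Klk6, Gip and Apoa1 either, which fell and whose sequences are not printed.

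Hormones and peptide precursors formed the next group. Of 12 tested genes for islet hormones and granule proteins, 5 fell (41.7%, beside 3.05% of all genes) and 7 did not pass. Of 16 tested neuropeptide precursors, 7 fell (43.8%) and 9 did not pass, and of 8 tested gut hormones 2 fell (25.0%) and 6 did not. The median differences of these lists were -1.32, -1.43 and -1.30, beside -0.05 over all 6922 genes. Cck, which encodes the gut and brain peptide cholecystokinin, read 0.6 and 1.2 in knockout cells and 92.6 and 93.5 in wild-type cells (-4.10 ± 0.32, adjusted p = 1.44e-05). Gip, an incretin hormone gene of the upper gut, read 8.3 and 8.6 in knockout cells and 109 and 94.7 in wild-type cells (-3.0 ± 0.35). Each had 2 close arrays in both groups.

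Pomc, the precursor of corticotropin and melanocortins, read 30.5 and 55.1 in knockout cells and 277 and 280 in wild-type cells (-2.62 ± 0.36). Chgb, a secretory granule protein gene, read 20.1 and 19.3 in knockout cells and 175 and 253.5 in wild-type cells (-3.14 ± 0.42). The opioid precursor gene Penk read 68.0 and 89.4 in knockout cells and 637 and 538 in wild-type cells (-2.83 ± 0.41). A second, dimmer Penk probe set did not pass (-0.26 ± 0.56), so the probe sets disagree. Scg2, another granule protein gene, read 0.9 and 2.7 in knockout cells and 27.5 and 32.5 in wild-type cells (-2.41 ± 0.43). Only the fit without knockout array 2 kept its call, and the adjusted p was 0.0617, 0.0554 and 0.0706 in the others. The somatostatin gene Sst, chosen after its values were seen and not called, read 4.0 and 6.5 in knockout cells and 49.0 and 42.5 in wild-type cells (adjusted p = 0.0567).

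Genes of intestinal and gastric epithelium fell in 8 of 23 tested cases (34.8%, beside 3.05% of all genes), and 15 did not pass. Tff3, a trefoil peptide gene of goblet cells, read 39.9 and 49.2 in knockout cells and 755 and 492 in wild-type cells (-3.64 ± 0.52, adjusted p = 0.00148). Fabp2, the intestinal fatty acid-binding protein gene, read 9.7 and 13.6 in knockout cells and 136 and 167 in wild-type cells (-3.25 ± 0.48, adjusted p = 0.00184). Structural genes of the same epithelium, chosen after their values were seen, did not pass. The keratin gene Krt20 read 366 and 492 in knockout cells against 689 and 1078 in wild-type cells (adjusted p = 0.203). The villin gene Vil1 read 90.6 and 138.5 against 208 and 222 (adjusted p = 0.306). Secreted Reg lectins, antibacterial or growth-related proteins of gut and pancreas, fell in 3 of 5 tested cases. Reg3b read 24.2 and 51.3 in knockout cells and 250.3 and 212 in wild-type cells, and its call was lost in each of the 4 fits with 1 array left out (adjusted p = 0.0514 to 0.28). A second, dimmer Reg3b probe set read 0.6 and 14.3 against 80.8 and 81.7 and passed in all 4. Reg1 read 9.4 and 32.5 in knockout cells and 95.8 and 72.1 in wild-type cells, and Reg3a read 6.7 and 6.1 against 31.2 and 37.7, with calls kept in 1 and 0 of the 4 fits. Of 12 exocrine pancreas genes, 3 fell, led by Sycn, a zymogen granule protein gene (1.5 and 2.8 in knockout cells, 34.8 and 21.2 in wild-type cells). With wild-type array 1 left out the adjusted p of Sycn was 0.0843. Zg16, another zymogen granule protein gene, read 10.8 and 8.8 in knockout cells and 50.4 and 55 in wild-type cells, and the chymotrypsinogen gene Ctrb1 read 58.4 and 101.4 against 228.9 and 216.2, with calls kept in 1 of the 4 fits each.

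Kallikreins, serine proteases of salivary gland and other epithelia, were the most often called of the lists with at least 10 tested genes. Of 12 tested, 10 fell (83.3%, beside 3.05% of all genes) and 2 did not pass, with a median difference of -2.73. Klk6, whose probe set carries no suffix for shared probes, read 1.5 and 1.5 in knockout cells and 77.5 and 47.0 in wild-type cells (-3.37 ± 0.38, adjusted p = 0.000261). Klk1b22 read 64.0 and 68.0 in knockout cells and 747 and 539 in wild-type cells (-3.18 ± 0.34), and Klk1b8 read 6.1 and 9.5 against 137.5 and 120.2 (-3.42 ± 0.40). The 9 Klk1 and Klk1b genes that fell are neighbours on chromosome 7. Probes of at least Klk1b22 and Klk1 are shared among similar sequences, so the 9 genes are not 9 independent measurements.

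Secreted proteins of salivary, lacrimal and nasal glands fell in 8 of 11 tested cases (72.7%, beside 3.05% of all genes), with a median of -2.28. Bpifa2, a salivary protein gene, read 3.7 and 4.6 in knockout cells and 74.3 and 73.9 in wild-type cells (-3.14 ± 0.49, adjusted p = 0.00241). Mup5, of the major urinary protein family, read 1.4 and 22.1 in knockout cells and 91.8 and 125 in wild-type cells (-3.12 ± 0.55). Leaving out wild-type array 2 brought its adjusted p to 0.0706. The amylase gene Amy1, the epidermal growth factor gene Egf and Scgb1b2 did not pass (-0.24, -0.91 and -0.18) and were chosen after their values were seen.

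Liver products fell in part. Of 29 plasma protein genes tested, 9 fell (31.0%), of 10 apolipoprotein genes 3 fell (30.0%), and of 32 liver enzyme genes 8 fell (25.0%). The share over all genes was 3.05%. The medians of the 3 lists were -0.85, -0.84 and -0.96. Apoa1, the main protein of high-density lipoprotein, read 35 and 64.3 in knockout cells and 436 and 328 in wild-type cells (-2.87 ± 0.38, adjusted p = 0.000999). Its chromosome 9 relative Apoa4, chosen after its values were seen, read 311 and 222 in knockout cells and 592 and 571 in wild-type cells (adjusted p = 0.476). Fgb, 1 of 3 adjacent fibrinogen genes that all fell, read 0.5 and 1.7 in knockout cells and 20.5 and 29.5 in wild-type cells (-2.33 ± 0.38). In the fit lacking wild-type array 2 its adjusted p was 0.0552. The plasma retinol carrier gene Rbp4 read 1.7 and 1.9 in knockout cells and 26.1 and 29.5 in wild-type cells, with an adjusted p of 0.0565 in that fit. The albumin gene Alb read 12.5 and 17.4 in knockout cells and 82.6 and 84.8 in wild-type cells (-2.17 ± 0.37), and its call was kept in 1 of the 4 fits with an array left out (adjusted p up to 0.0569 in the others). The drug-metabolising Cyp3a11 read 1.3 and 4.1 in knockout cells and 29.0 and 36.3 in wild-type cells, with an adjusted p of 0.0595 when wild-type array 2 was left out. The alcohol dehydrogenase gene Adh1 read 8.1 and 18.6 in knockout cells and 53.3 and 71.8 in wild-type cells, and kept its call in 2 of the 4 fits.

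Acute-phase and antimicrobial genes, several of them known from granulocytes, fell in part. Of 17 such genes tested, 8 fell (47.1%, beside 3.05% of all genes) and 9 did not pass, with a median of -1.92. S100a9, a calprotectin subunit of neutrophils and epithelia, read 5.3 and 7.4 in knockout cells and 139.5 and 124 in wild-type cells (-3.62 ± 0.46, adjusted p = 0.000729). Ngp, a neutrophil granule protein gene, read 21.0 and 20.4 in knockout cells and 115 and 139 in wild-type cells (-2.37 ± 0.34). Ly6g, a neutrophil surface protein gene, read 8.1 and 33.5 in knockout cells and 215 and 258 in wild-type cells (-3.44 ± 0.54). All 3 were high on the arrays of wild-type unfractionated mTEC (80.0 and 87.3 for S100a9, 107 and 117 for Ngp, 241 and 190 for Ly6g), which are different samples. The protease inhibitor gene Slpi read 88.2 and 125.7 in knockout cells and 646.2 and 592.1 in wild-type cells, but its probe sets disagree and its call was kept in 1 of the 4 fits.

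Further granule genes, chosen after their values were seen, behaved unevenly. The myeloperoxidase gene Mpo read 7.1 and 3.7 in knockout cells and 73.8 and 64.9 in wild-type cells (-2.88 ± 0.57, adjusted p = 0.011). The eosinophil peroxidase gene Epx read 12.4 and 4.6 in knockout cells and 44.5 and 49.8 in wild-type cells (-2.03 ± 0.46, adjusted p = 0.0264). The mast cell protease gene Mcpt2 read 1.2 and 10.9 in knockout cells and 89.1 and 96.3 in wild-type cells (-3.33 ± 0.55, adjusted p = 0.00379). By contrast Prg2, the major basic protein gene of eosinophils, read 161 and 142 in knockout cells and 150.0 and 142 in wild-type cells (0.05 ± 0.34), and the pan-leukocyte gene Ptprc read 33.7 and 70.0 in knockout cells and 28.4 and 75.4 in wild-type cells. Mpo lost its call in all 4 fits with an array left out (adjusted p = 0.0507 to 0.116), Epx in 3 of them and Mcpt2 in 2 (up to 0.196 and 0.0525).

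Among 20 genes of testis and oocytes tested, 5 fell (25.0%, beside 3.05% of all genes) and 15 missed the threshold, with a median of -0.36. Zp3, an egg coat protein gene, read 3.3 and 6.9 in knockout cells and 60.4 and 51.0 in wild-type cells (-2.63 ± 0.43), with an adjusted p of 0.0554 when wild-type array 1 was left out. Ldhc, a testis lactate dehydrogenase gene, read 0.4 and 2.1 in knockout cells and 19.1 and 28.7 in wild-type cells, and missed the threshold without wild-type array 2 (adjusted p = 0.0631). Dppa3, a maternal-effect gene of oocytes and early embryos, read 17.5 and 6.6 in knockout cells and 205 and 147 in wild-type cells (-3.48 ± 0.50, adjusted p = 0.00156). Fabp9, a fatty acid-binding protein gene of testis, fell but stayed bright: 199 and 554 in knockout cells against 2040 and 1701 in wild-type cells (-2.47 ± 0.53). Its call was kept only with knockout array 2 left out, and the other 3 fits gave adjusted p-values of 0.231, 0.197 and 0.107. A second, dimmer Fabp9 probe set missed the threshold (-1.90 ± 0.50, adjusted p = 0.0576).

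Lung, kidney, tooth and blood genes supplied further examples. Slc12a3, the salt cotransporter gene of the kidney's distal tubule, read 4.0 and 5.0 in knockout cells and 70.4 and 71.6 in wild-type cells (-3.03 ± 0.42). Amelx, which encodes the enamel protein amelogenin, read 8.3 and 15.2 in knockout cells and 152 and 116 in wild-type cells (-3.09 ± 0.47). Hbb-y, an embryonic beta-like globin gene, read 11.9 and 7.2 in knockout cells and 171 and 139 in wild-type cells (-3.49 ± 0.52). Its probe set has the suffix for probes shared among similar sequences, so other globin transcripts could contribute. Of 15 erythroid genes tested 3 fell, of 17 lung, kidney and bladder genes 4 fell, and of 16 bone, tooth and fat genes 2 fell. Among chemokines and cytokines, 3 of 43 genes fell (6.98%, beside 3.05% of all genes). Il5 read 2.6 and 12.8 in knockout cells and 62.8 and 78.7 in wild-type cells, with adjusted p-values of 0.069 and 0.0706 when knockout array 1 or wild-type array 2 was left out. The chemokine gene Ccl8 read 19.5 and 30.9 in knockout cells and 201.8 and 107.4 in wild-type cells, and Ccl9 read 228.3 and 356.1 against 946.8 and 760.1, with calls kept in 2 and 1 of the 4 fits.

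Other tissue lists had few calls. Of 31 brain and peripheral nerve genes, 1 fell (3.23%, beside 3.05% of all genes), namely Calb2, the calretinin gene, at 13.4 and 24.0 in knockout cells and 141 and 134 in wild-type cells. Its call was kept only without knockout array 2 among the 4 fits (adjusted p up to 0.0855 in the others). Gad1, which encodes a GABA-synthesising enzyme, read 111 and 249 in knockout cells and 97.6 and 135.5 in wild-type cells, was not called and was chosen after its values were seen. Of 45 striated muscle genes 5 fell and 1 rose, of 34 skin and hair genes 4 fell, of 24 eye and sensory genes 3 fell, of 12 pituitary, thyroid and placental hormone genes 2 fell, and of 9 steroidogenic and 5 male accessory gland genes 1 fell in each. Chrna1, a muscle acetylcholine receptor subunit gene, read 2.1 and 0.5 in knockout cells and 23.7 and 24.8 in wild-type cells (-2.26 ± 0.39), and cardiac actin Actc1 read 30.8 and 29.9 against 110.5 and 133.1 (-1.84 ± 0.29). The cornified envelope gene Sprr2f read 14.9 and 46.5 in knockout cells and 215.5 and 217.9 in wild-type cells (-2.80 ± 0.56). The keratin gene Krt13 read 7.1 and 2.2 against 27.2 and 30.0 by its brightest probe set (-1.87 ± 0.39). Averaged over its 3 tested probe sets the difference was -0.86 (adjusted p = 0.419 by limma), so the Krt13 probe sets disagree. Cryaa, which encodes a lens crystallin, read 21.9 and 28.0 in knockout cells and 140.4 and 99.2 in wild-type cells (-2.05 ± 0.40). In these 5 genes the groups did not overlap, which their choice by call largely implies. With 1 array left out, calls were kept in 2 of the 4 fits for Chrna1, 3 for Actc1 and 1 each for Sprr2f, Krt13 and Cryaa.

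Over the 23 tissue lists together, 399 genes were tested out of 717 listed and 551 on the array. Of these, 103 fell (25.8%) and 1 rose, whereas of the other 6523 genes 108 fell (1.66%) and 12 rose. Levels in wild-type unfractionated mTEC and cTEC, which are no part of the difference between the genotypes but do enter the filter and the spread of the fit, divided the tissue genes further. Where both mTEC arrays lay above both cTEC arrays, 100 of 305 tissue genes fell (32.8%), and elsewhere 3 of 94 did (3.19%). Among genes outside the lists these numbers were 99 of 1709 (5.79%) and 9 of 4814 (0.187%). By mean signal in unfractionated mTEC, 6 of 61 tissue genes at or under 17.3 fell, 51 of 226 up to 100, 44 of 103 up to 1000, and 2 of 9 above 1000. The last group holds 9 genes, and a dim gene has less room above background to fall. The lists were drawn up with results of these data known, so their share is a description.

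**Figure D3:**
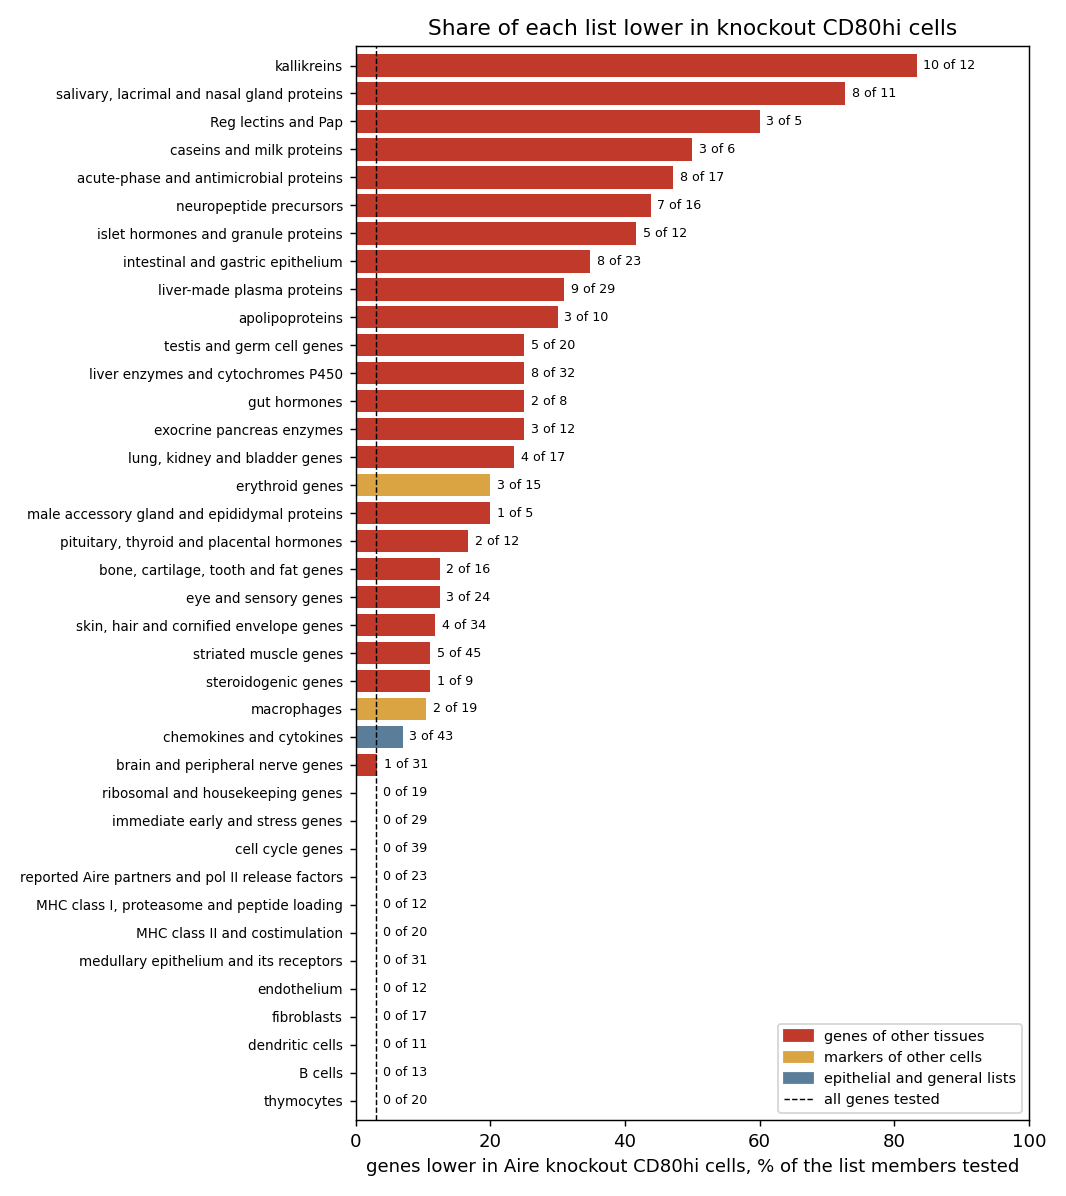
Bars give the percentage of tested members of each gene list that were lower in knockout CD80hi cells, with the number lower and the number tested beside each bar; the dashed line is the 3.05% of all genes tested. Kallikreins (10 of 12) and gland proteins (8 of 11) stand at the top, brain genes (1 of 31) lie at the line, and 12 lists have no lower gene.

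Several tissue genes with high signals did not pass. Besides Csn2, the squamous envelope gene Sprr1a read 1431 and 1410 in knockout cells and 1369 and 1509 in wild-type cells (-0.02 ± 0.39). Its relative Sprr1b read 765 and 628 in knockout cells and 745 and 560 in wild-type cells by its brighter probe set. The other read 226 and 364 against 707.5 and 443 (limma adjusted p = 0.603). The brighter one also read 479 and 560 in cTEC, 854 and 659 in dendritic cells and 622 and 453 in macrophages. Sprr1a read 60.6 or less in those cells, so the brighter Sprr1b probe set may not measure this gene alone. The mucin gene Muc1 read 1238 and 1021 against 1107 and 1041. Asprv1, a skin protease gene, read 1157 and 537 in knockout cells and 1296 and 635 in wild-type cells, and the keratin gene Krt17 read 1670 and 893 against 1483 and 1020. For these last genes the arrays of each genotype differed more than the genotypes did. These genes were picked for a difference between -0.5 and 0.5, so their stability is the rule and no finding, and their standard errors of 0.30 to 0.81 leave room for moderate changes.

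The general machinery of the mature mTEC gave no calls. None of the 31 tested medullary epithelium and receptor genes passed (median 0.12, range -0.97 to 0.93), nor any of 20 MHC class II and costimulation genes (median 0.45, range -0.52 to 1.57). The same held for 12 class I and peptide loading genes, 23 genes of reported AIRE partners and transcription release factors, 39 cell cycle genes, 29 stress genes and 19 ribosomal and housekeeping genes, with medians of 0.10, 0.04, 0.26, -0.05 and 0.22. By sign, 2 of the 20 class II and costimulation genes and 10 of the 39 cell cycle genes were negative, beside 3748 of all 6922 genes. The other lists had 14 of 31 (medullary), 3 of 12 (class I), 9 of 23 (partners), 16 of 29 (stress) and 7 of 19 (ribosomal and housekeeping). Summed class II and costimulation signals were 43510 and 36990 in knockout and 33770 and 32160 in wild-type cells. H2-Ob, the beta chain of a class II chaperone, read 406 and 219 in knockout cells and 101 and 94.1 in wild-type cells (1.57 ± 0.50, adjusted p = 0.142). Cdk9, a kinase that releases paused polymerase and has been linked to AIRE, read 134 and 114.5 in knockout cells and 76.3 and 92.9 in wild-type cells (adjusted p = 0.684).

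Marker genes of non-epithelial cells were measured on the same arrays. By limma, no thymocyte (20 tested), B cell (13), dendritic cell (11), fibroblast (17) or endothelial gene (12) was called by its brightest probe set. Summed thymocyte signals were 1158 and 868 in knockout cells and 673 and 1009 in wild-type cells, and Cd3e read 20.1 and 6.2 against 4.0 and 5.3. Summed dendritic cell signals were 8988 and 4620 in knockout cells and 5433 and 5661 in wild-type cells, and summed B cell signals were 2456 and 2111 against 1834 and 1699. Of 19 macrophage genes 2 fell (10.5%, beside 3.05% of all genes). They were the scavenger receptor gene Marco (4.5 and 2.0 in knockout cells, 18 and 33.3 in wild-type cells) and the endotoxin receptor gene Cd14 (155 and 172 against 627.5 and 442). Both lost their calls in all 4 fits with an array left out (adjusted p = 0.0528 to 0.271). The macrophage marker Adgre1 was dim in both groups, at 2.3 and 19.9 in knockout cells and 4.3 and 14.6 in wild-type cells, against 507 and 1199 in macrophages. Summed macrophage signals were 3042 and 3727 in knockout cells and 4000 and 3700 in wild-type cells. Fibroblast sums were higher in knockout cells (2132 and 2062) than in wild-type cells (1385 and 1508). Endothelial sums were 287.6 and 289.1 in knockout cells and 264.2 and 275.5 in wild-type cells. The endothelial gene Kdr read 10.4 and 15.2 against 2.3 and 9.1, and Flt1 read 14.4 and 11.4 against 22.4 and 24.2. Cdh5, also endothelial, read 2.0 or less on all 4 arrays. The part of these cells in the other differences was not tested.

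Few genes rose, and most of these calls were fragile. Ccnb1ip1, a ubiquitin ligase gene of meiotic recombination, read 204 and 167 in knockout cells and 1.0 and 14.3 in wild-type cells (4.17 ± 0.60, adjusted p = 0.00156). It is the higher gene that passed in all 4 fits with an array left out. In every other group, knockout CD80lo cells included, it read 19.4 or less. Rad50, a DNA double-strand break repair gene, read 1296 and 1622 in knockout cells and 501 and 540 in wild-type cells (1.47 ± 0.28, adjusted p = 0.00815). Kit, a growth factor receptor gene, read 220 and 237 in knockout cells and 77.3 and 72.7 in wild-type cells (1.55 ± 0.35, adjusted p = 0.0252). Maoa, monoamine oxidase A, read 592 and 796 in knockout cells and 279 and 239 in wild-type cells (1.39 ± 0.34, adjusted p = 0.0414).

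The fucosyltransferase gene Fut1 read 52.5 and 45.7 in knockout cells and 10.4 and 5.5 in wild-type cells. The neuroserpin gene Serpini1 read 124 and 289 in knockout cells and 39.1 and 60.1 in wild-type cells. Myh7, a cardiac and slow muscle myosin gene, read 394.5 and 242 in knockout cells and 79.7 and 124 in wild-type cells. In these 3 genes both knockout arrays lay above both wild-type arrays, which their choice by call largely implies. Cdca7l read 309 and 314 in knockout cells and 68.8 and 115 in wild-type cells, and the transcription factor gene Tbx15 read 119 and 183 against 51.7 and 47.7. Mrpl13, a mitochondrial ribosomal gene, read 263 and 287 in knockout cells and 128.5 and 121 in wild-type cells, and Wdfy2 read 245 and 283 against 136 and 85.4. The others that rose were Eif2s3y, a clone-named gene, a second-brightest probe set and 2 probe sets with no single gene listed. Rad50 kept its call only with knockout array 1 left out (adjusted p of up to 0.109 in the other fits). Kit, Maoa, Fut1, Cdca7l, Tbx15, Mrpl13 and Wdfy2 lost theirs in all 4 fits, with adjusted p-values of up to 0.466, and Myh7 and Serpini1 in 3. One probe set with no gene listed read, like Eif2s3y, highest on array 2 of both knockout groups, at 15.1 and 84.0 in knockout CD80hi cells and 0.5 and 0.8 in wild-type CD80hi cells, and 8.2 and 78.5 in knockout CD80lo cells. A probe set of the fibroblast collagen gene Col1a2 also rose (15.5 and 33.9, against 2.8 and 4.5), while the brighter one did not pass. Each of these 2 probe sets kept its call in 1 of the 4 fits (adjusted p up to 0.34 for the unnamed one and 0.196 for Col1a2). Both were chosen after their values were seen.

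The 268 lower probe sets were dim in most other cells. Their median signal was 9.6 and 12.9 on the knockout CD80hi arrays, 84.6 and 83.8 in wild-type CD80hi cells, 14.8 and 12.8 in wild-type CD80lo cells and 70.8 and 69.7 in wild-type unfractionated mTEC. It was 5.7 and 9.4 in cTEC, 4.8 and 5.2 in dendritic cells and 7.8 and 6.0 in macrophages, while the medians over all tested probe sets lay between 47.3 and 62.3 on every array. On all 6 arrays of cTEC, dendritic cells and macrophages, 146 of the 268 (54.5%) read at or under 17.3, as did 895 of the 9319 tested (9.6%). Both unfractionated mTEC arrays lay above both cTEC arrays for 249 of the 268 (92.9%), beside 27.8% of all tested. A set chosen as high in 1 mTEC group can be higher in another for that reason alone. Exceptions were 23 of the 268 that were brighter on both wild-type CD80lo than on both wild-type CD80hi arrays. Penk read 704 and 533 in cTEC, about its level in wild-type CD80hi and unfractionated mTEC. In wild-type CD80lo mTEC it read 137 and 139.

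**Figure D4:**
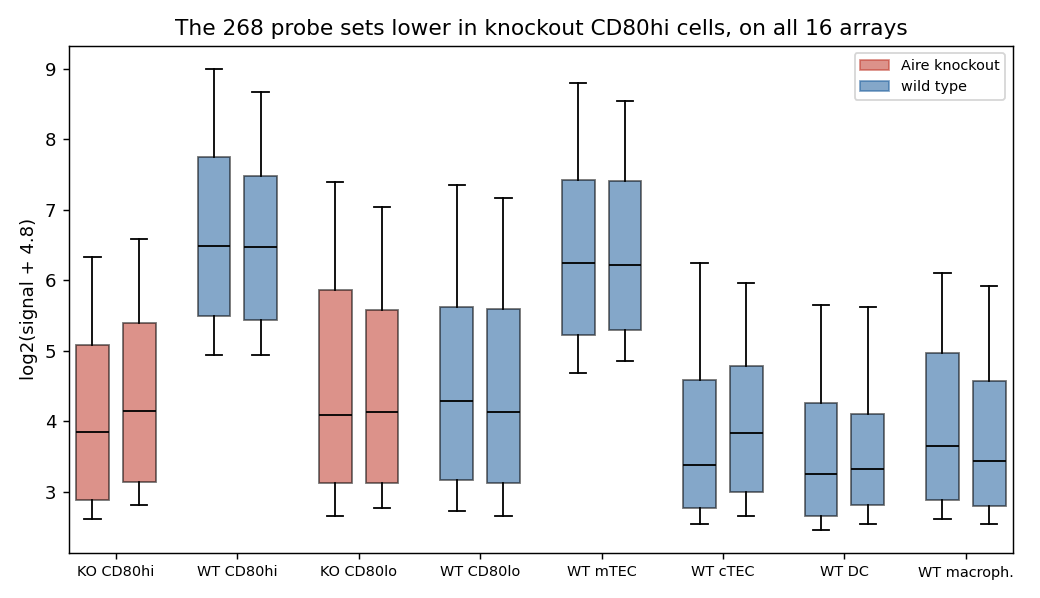
Log2(signal + 4.8) of the probe sets (268) that fell, with 1 box per array (line, median; box, quartiles; whiskers, 10th to 90th percentile) in 8 groups of 2. The 2 wild-type CD80hi and 2 unfractionated mTEC arrays are high, the knockout CD80hi arrays lie at the level of CD80lo cells of both genotypes, and cTEC, dendritic cells and macrophages are lower still.

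In CD80lo cells the knockout gave far fewer calls: 4 of 9319 probe sets were lower (0.0429%) and 26 were higher (0.279%). The 268 probe sets had a median difference of -0.01 there. Both knockout CD80lo arrays lay below both wild-type CD80lo arrays for 73 of the 268 (27.2%, beside 19.2% of all tested) and above them for 64 (23.9%, beside 15.5%). The difference between the effects in the 2 fractions was itself tested: 121 probe sets (1.30%) had a more negative effect in CD80hi cells and 0 a more positive one by limma, where 126 had a positive difference at an unadjusted p under 0.05. Of the 268, 88 (32.8%) had such a negative difference. At these levels many genes could not fall in CD80lo cells, since 139 of the 268 (51.9%) read at or under 17.3 on both wild-type CD80lo arrays.

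All 4 probe sets lower in knockout CD80lo cells were among the 268. Of 3 Ctse probe sets 2 were among them, and the brighter read 44.0 and 51.9 in knockout CD80lo cells and 960 and 696 in wild-type CD80lo cells (-3.97 ± 0.47, adjusted p = 0.00149). Ctse also read 1009 and 1026 in wild-type dendritic cells and 1018 and 1278 in wild-type macrophages. All 4 knockout arrays lay below all 12 wild-type arrays. The gap was narrow for cTEC, which read 311 and 296, beside 248.8 on knockout CD80hi array 1. AI506816, chosen after its values were seen, had the same distribution, with 244 and 112 in knockout CD80hi cells, 2858 and 3109 in wild-type CD80hi cells and 312 to 2602 on the other wild-type arrays. So did a probe set with no gene listed, at 75.6 and 20.5 in knockout CD80hi cells and 2522 and 2241 in wild-type CD80hi cells.

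By contrast, 5 of the 268 moved the other way in CD80lo cells. Acta1, skeletal muscle actin, read 2.0 and 3.9 in knockout CD80hi cells and 21.9 and 22.2 in wild-type CD80hi cells, yet 636 and 508 in knockout CD80lo cells and 52.4 and 37.3 in wild-type CD80lo cells (3.55 ± 0.32, adjusted p = 0.000233). The imprinted growth factor gene Igf2 read 41.9 and 117.5 in knockout and 717 and 481 in wild-type CD80hi cells, yet 671 and 428 in knockout and 65.2 and 66.8 in wild-type CD80lo cells. The imprinted cell cycle inhibitor gene Cdkn1c read 313 and 250.5 in knockout and 821 and 850.1 in wild-type CD80hi cells, yet 677 and 638 in knockout and 119 and 137 in wild-type CD80lo cells. The other members were Arg1, the arginase gene of the urea cycle, and Gsta4, a glutathione transferase gene. In CD80hi cells the calls of Acta1 and Cdkn1c were kept in 1 of the 4 fits with an array left out, Arg1 in 1 and Gsta4 in 0, and Igf2 in all 4 (adjusted p up to 0.0685, 0.0923, 0.178 and 0.51 for the first 4). Igf2, Cdkn1c and Gsta4 were chosen after their values were seen.

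**Figure D5:**
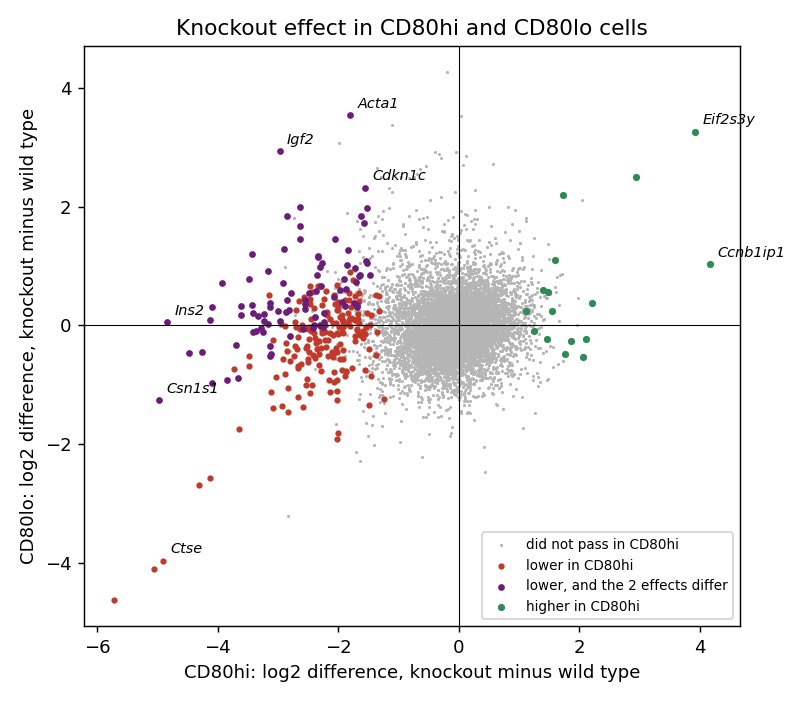
Difference of log2(signal + 4.8), knockout minus wild type, in CD80hi cells on the horizontal axis and in CD80lo cells on the vertical axis, for all 9319 tested probe sets. Points are coloured where they fell in CD80hi cells, where the 2 effects also differed, and where they rose. Most of the 268 lower probe sets spread around 0 on the vertical axis, Ctse lies low on both axes, and Igf2, Acta1 and Cdkn1c lie low in CD80hi and high in CD80lo cells.

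Genes flanking Aire on chromosome 10 were compared because sequence beside a targeted gene can differ with the allele. Of the 20 nearest annotated genes, 10 on each side, 7 were tested and 0 were called by limma, with differences from -0.45 to 1.41 and 1 at an unadjusted p under 0.05. That gene is Pfkl, the adjacent phosphofructokinase gene, which read 405 and 117 in knockout cells and 84.5 and 74.1 in wild-type cells (1.41 ± 0.49, adjusted p = 0.203). Its adjusted p was 0.82 without knockout array 1 and 0.0201 without knockout array 2, so Pfkl would be called higher from knockout array 1 alone.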

How the data were processed

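Linear array intensity (signal) values, as the authors deposited them, cover 12488 probe sets on 16 arrays; how they were scaled is not given in the sources used here. Genes, lists and tests were chosen with earlier results of these data known. The 66 control probe sets and 3103 that did not exceed 17.3 on at least 2 arrays were left out, leaving 9319. The platform annotation gave 1 gene symbol for 10833 probe sets and several for 396, and it listed none for 1193. The GRCm38.p6 RefSeq gene table updated 10817 of these symbols and 16 stayed as annotated. One limma model (3.58.1, R 4.3.3; the R package data.table, version 1.17.8; python 3.11.15, pandas 2.3.3 and matplotlib 3.10.9 for results and plots) fitted the 16 arrays as 8 group means, with lmFit and eBayes with a trend on log2(signal + 4.8) (degrees of freedom 8 residual, 5.97 prior). All tests were 2-sided, with Benjamini-Hochberg adjustment over the 9319, threshold 0.05, no minimum fold. The steps were tested on simulated data. The number of arrays limits the precision.

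Genes were counted by the probe set brightest on average over all arrays. The genes named were taken from Aire, Cd80, Ins2 and Csn1s1; the 16 largest losses that also passed with each CD80hi array left out; all genes that rose and have 1 symbol that is no clone name; up to 3 genes of each of the 39 lists (1119 members), called ones first; and up to 6 bright tissue genes with a difference under 0.5. Of 122 such genes, 24 rest on probe sets with a letter suffix. Most of these suffixes (f or s) stand for probes shared among similar sequences, and the rest (i or r) do not. Besides Ins2 and Klk1b22, the shared-probe suffix holds for Hbb-y, Eif2s3y, Ctse, Chgb, Penk, Mup5, Fabp9, Actc1, Myh7, Krt17, Krt13, Sprr2f, Amelx, Reg3b and Cd80. Promoters were matched to genes by Entrez ID. The promoter table holds 165 of the 211 genes that fell, under 80%, so a check of promoter composition over them is void and not given. Alternatives were quantile normalisation, constants of 1 and 17.3, no filter and a filter of 50, a model of the compared groups alone, eBayes lacking a trend, a block for replicate number, each array left out, gene means over probe sets and, added after seeing the data, a fit without array 1 of both knockout groups.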

Additional observations from a re-analysis of the deposited data

Results flagged for a closer look

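The effect of the knockout differed between CD80hi and CD80lo cells for 28 genes named by the rule, by the limma test of the difference itself (adjusted over all tested probe sets). Values are the CD80hi effect minus the CD80lo effect on the log2 scale. Among those genes, Acta1 had -5.35 ± 0.45, Ins2 -4.90 ± 0.71, Cck -4.41 ± 0.46, Csn1s2a -4.22 ± 0.54, Zp3 -4.09 ± 0.61 and Mucl2 -4.01 ± 0.77. Csn1s1 had -3.72, S100a9 -3.79, Ly6g -3.77, Klk1b8 -3.63, Cyp3a11 -3.51, Arg1 -3.46, Bpifa2 -3.45, Chrna1 -3.32, Rbp4 -3.29, Klk6 -3.27, Gip -3.24, Klk1b22 -3.19, Fabp2 -3.15, Camk2b -3.13, Actc1 -3.12 and Apoa1 -3.08. The differences were -2.94 for Ngp, -2.69 for Rhd, -2.62 for Chgb, -2.49 for Guca1a, -2.48 for Krt13 and -2.45 for Ldhc. For Ins2, Csn1s2a, Klk6, Klk1b8, Gip, Fabp2, Apoa1, Ly6g, Ngp, Cyp3a11, Zp3, Ldhc, Krt13 and Rhd both wild-type CD80lo arrays read under 7, so there was little room to fall there. For Cck, Chgb, Camk2b, Actc1, Klk1b22 and Acta1 both of those arrays read 33.1 or more. The CD80lo effect itself was most positive for Acta1 (3.55), Arg1 (1.84), Zp3 (1.46), Actc1 (1.28), Cyp3a11 (1.17), Chrna1 (1.06), Rbp4 (0.99) and Rhd (0.96), which adds to their differences. It was negative for Csn1s1 (-1.26), Camk2b (-0.97), Chgb (-0.52), Mucl2 (-0.46), Klk6 (-0.1) and Fabp2 (-0.1). By limma the CD80lo effect passed for Acta1 and Arg1 only. Krt13 rests on the brightest of its 3 probe sets, which disagree. The falls of Guca1a and Rhd in CD80hi cells lost their calls in all 4 fits with a CD80hi array left out (adjusted p up to 0.287 and 0.304). Outside the naming rule, Igf2 (-5.90 ± 0.61), Cdkn1c (-3.88 ± 0.42) and Gsta4 (-3.51 ± 0.54), chosen after their values were seen, passed the same test.

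A control probe set for 18S ribosomal RNA read 562 on knockout CD80hi array 1 and 48.2 on array 2, against 148 and 159 on the wild-type CD80hi arrays. In CD80lo cells it read 1893 and 287 on knockout arrays 1 and 2, against 342 and 376 in wild type, so array 1 was the higher in both knockout groups. The ratio of the 3′ to the 5′ control for Gapdh was 5.53 and 16.2 in knockout and 8.09 and 11.1 in wild-type CD80hi cells, and 4.32 and 7.81 in knockout and 8.82 and 6.45 in wild-type CD80lo cells.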

How the results depend on the processing

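The 2 arrays per group are the main limit. Lower probe sets in knockout CD80hi cells ranged from 80 to 205 with 1 CD80hi array left out, and higher ones from 1 to 15. A constant of 1 gave 172 lower and 8 higher. The 40th percentile as the constant gave 28 higher, quantile normalisation 27 and the replicate block 26. With quantile normalisation 10.6% of the calls were higher, beside 5.63% as deposited. Without array 1 of both knockout groups, added after seeing the data, there were 149 lower and 8 higher. The CD80lo calls (30) became 18 with a constant of 1, 47 with the 40th percentile, 16 with only the groups compared, 51 with the block, and 8 to 25 with an array left out. Calls for the difference between fractions (121) became 44, 216 and 77 with the first 3 of these, 34 to 99 with an array left out, and 44 without array 1 of both knockout groups. The counts of lower probe sets in CD80hi cells stayed within 1.5 times the 268 under quantile normalisation (227), no filter (289), the stricter filter (181), no trend (296), only the groups compared (227) and the block (334). Results for the lists depended on the processing too. With a constant of 1, 15 of the 39 lists moved, beside 8 with the stricter filter and 6 with quantile normalisation. More lists moved when either wild-type CD80hi array was left out. No named gene reversed its direction under any alternative in which either fit called it. The labels do not say that a replicate number marks a shared animal, sort or batch. Deviations of same-numbered arrays correlated positively in all 28 pairs of groups (0.027 to 0.526, over 0.1 in 20), at 0.166 for knockout with wild-type CD80hi and 0.517 for knockout CD80hi with CD80lo arrays. With 2 numbers these are a hint from the data and do not settle whether the numbers pair the samples. With the replicate block 334 probe sets were lower and 174 had a difference between fractions, and 0 of the 122 named genes lost a call. Every other setting cost some named genes their call. These were 23 with a constant of 1, Fabp2 among them, 18 with only the groups compared and 8 with quantile normalisation. No filter cost 6 calls, the stricter filter and gene means over probe sets 3 each, no trend 2 and the 40th percentile 1. More calls were lost in each fit with a CD80hi array left out.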
